A study of Mus musculus with 17 samples.

Results

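A group of 4 microRNAs (miRNAs) of the imprinted Dlk1-Dio3 domain, encoded antisense to the gene Rtl1, was followed in mouse serum: miR-337-3p, miR-127-3p, miR-434-3p and miR-136-3p. They were chosen by assay name and make up 4 of the 357 miRNA assays on the PCR panel. The assays mmu-miR-127-3p and mmu-miR-434-3p are named for mouse, and rno-miR-136-3p and rno-miR-337-3p are named for rat. Assays for the opposite arms of 2 of the hairpins, miR-434-5p and miR-136-5p, were on the same panel and are given beside them.

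Serum was taken at necropsy from 7 AT-ATX mice that had developed tumors spontaneously, 7 that had none and 3 healthy FVB/N controls of wild type. AT-ATX animals carry a transgene for Autotaxin, which cells secrete and which produces lysophosphatidic acid, a lipid that signals through receptors on other cells. Both AT-ATX groups carry the transgene and their labels differ in tumors, while tumor-free and wild-type mice differ in the transgene. Other differences between the groups, such as age, cannot be told apart from these. The sample titles name the FVB/N strain only for the wild-type mice. The promoter of the transgene, the ages of the mice and the kinds of tumor are not given in the sources used here, and a question mark stands in the label of the fifth tumor replicate. Each sample is named as 1 mouse. The labels of AT-ATX mice also carry a number of unstated meaning, which 2 tumor and 1 tumor-free mice share (77), as do 1 tumor and 2 tumor-free mice (85) and 2 tumor-free mice (87). A further code, also unexplained, is nearly the same in 2 labels with the number 85: F1 for the tumor mouse and F1b for a tumor-free mouse. Tumor and tumor-free mice were both set against the same 3 wild-type mice, so those comparisons share their controls.

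The Dlk1-Dio3 domain is controlled by parental imprinting: its noncoding RNAs, miRNAs included, are made from the maternally inherited copy, and its protein genes Dlk1, Rtl1 and Dio3 from the paternally inherited one. Rtl1 derives from a retrotransposon and is needed in the placenta, and the miRNAs antisense to it pair perfectly with its transcript and can direct its cleavage. These miRNAs are abundant in embryo, placenta and brain and are low in most other adult tissues.

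The mature sequences are shown because they set the 4 apart from each other: with the seed (bases 2 to 8, the part that pairs with most targets) in capitals, no 2 of them share a seed. They are the mouse sequences from RefSeq (GRCm38.p6), written 5′ to 3′, also for the assays named for rat.
miR-337-3p: uCAGCUCCuauaugaugccuuu
miR-127-3p: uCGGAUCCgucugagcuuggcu
miR-434-3p: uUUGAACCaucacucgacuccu
miR-136-3p: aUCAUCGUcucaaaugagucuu

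On GRCm38.p6, miR-337-3p lies at chr12:109585850-109585871, miR-127-3p at chr12:109592888-109592909, miR-434-3p at chr12:109594565-109594586 and miR-136-3p at chr12:109595366-109595387, all on the plus strand. The 4 hairpins lie inside the bounds of Rtl1 in the RefSeq table (chr12:109564900-109604418) and span 9600 bases. Mir337 ends 6960 bases before Mir127, Mir127 ends 1590 bases before Mir434, and Mir434 ends 727 bases before Mir136.

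Values were deposited as quantification cycles (Ct), where a lower Ct means more template. The level of a miRNA was taken against the 252 miRNAs found in each of the 17 sera, as their mean Ct minus its own Ct, on the log2 scale. A level of 0 therefore equals the panel mean, and levels say nothing of the amount per volume of serum. The panel mean was 29.8 ± 1.18 cycles in tumor, 29.4 ± 0.83 in tumor-free and 28.4 ± 1.50 in wild-type mice (SD, n = 7, 7 and 3), and 312 to 356 assays were detected per serum. As an estimate of red cell lysis, the hemolysis index was the Ct of miR-23a-3p, which lysis leaves stable, minus that of miR-451a, which is abundant in red cells.

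All 4 miRNAs lay in the lower part of the panel, on a scale that also depends on how well each assay amplifies. Of the 338 assays tested, miR-434-3p ranked 208th by mean level (mean Ct 32.0), miR-136-3p 215th (32.5), miR-127-3p 250th (33.3) and miR-337-3p 315th (34.6). No value above a Ct of 37 was deposited, so these miRNAs lie within a few cycles of the end of the measured range. MiR-434-3p was detected in all 17 sera and each of the others in 15. With at most 2 undetected sera a miRNA, no difference in detection between groups could have passed (smallest possible two-sided Fisher's exact p = 0.0667).

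MiR-337-3p (rno-miR-337-3p), the last of the 4 to amplify, gave levels of -3.07, -2.98, -6.08, -5.40, -5.75, -5.74 and -2.95 in tumor replicates 1 to 7. In tumor-free mice its levels were -5.23, -5.87, -5.67, -5.30, -4.55 and -6.25 in replicates 1 to 4, 6 and 7, and it was not detected in replicate 5. Wild-type replicates 1 and 3 had levels of -6.32 and -6.58, and it was not detected in replicate 2. Tumor replicates 1, 2 and 7 lay above every tumor-free mouse, while the other 4 tumor mice lay within the tumor-free range. Both detected wild-type values lay below those of all 7 tumor mice and of the 6 tumor-free mice with a value. By raw Ct, counted from the lowest of 15, tumor replicates 7 and 2 ranked 1st and 2nd and tumor replicate 1 only 9th. Wild-type replicate 1 ranked 3rd. For tumor-free replicate 5 the level can be at most -6.68, which is below both detected wild-type values.

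MiR-127-3p (mmu-miR-127-3p) is the member best known for its antisense action on Rtl1. Its levels in tumor replicates 1, 2 and 4 to 7 were -4.81, -3.46, -4.34, -4.44, -3.51 and -1.68, and it was not detected in tumor replicate 3. Tumor-free replicates 1 to 7 had levels of -3.50, -5.88, -3.07, -4.14, -4.30, -3.02 and -5.15. Wild-type replicates 1 and 2 had -1.49 and -7.19, and it was not detected in replicate 3. These 2 wild-type values are the highest and the lowest of all 15 detected, and all detected AT-ATX values lie between them. For tumor replicate 3 the level can be at most -7.23, below both, and a mean of the wild-type group describes neither control.

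MiR-434-3p (mmu-miR-434-3p) was the first of the 4 to amplify. Its levels in tumor replicates 1 to 7 were 0.20, -0.70, -2.16, -2.91, -3.46, -3.41 and -0.36. In tumor-free replicates 1 to 7 they were -2.99, -2.63, -2.76, -2.41, -3.74, -2.93 and -3.64. Wild-type replicates 1 to 3 had -1.43, -6.70 and -3.08. Tumor replicates 1, 2, 3 and 7 lay above every tumor-free mouse, and tumor replicates 4 to 6 lay among the tumor-free mice. By raw Ct, counted from the lowest of 17, tumor replicates 7, 2, 1 and 3 ranked 1st, 3rd, 5th and 8th. Tumor-free replicate 1 ranked 4th. The SD was 1.53 in tumor and 0.50 in tumor-free mice (n = 7 each).

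MiR-136-3p (rno-miR-136-3p) comes from the hairpin farthest downstream of the 4. Its levels in tumor replicates 1 to 7 were -1.41, -1.80, -3.76, -3.01, -5.08, -4.28 and -0.71. Tumor-free replicates 1 to 4, 6 and 7 had -1.72, -2.50, -3.55, -2.46, -3.59 and -4.29, and it was not detected in replicate 5. Wild-type replicates 1 and 3 had -3.09 and -5.51, and it was not detected in replicate 2. Tumor replicates 1 and 7 lay above the tumor-free range and tumor replicate 5 below it, so the detected tumor values enclose the detected tumor-free ones. By raw Ct, counted from the lowest of 15, tumor replicates 7 and 1 ranked 1st and 8th and tumor-free replicate 1 ranked 2nd. For tumor-free replicate 5 the level can be at most -6.68, which is below all 7 tumor mice.

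**Figure D1:**
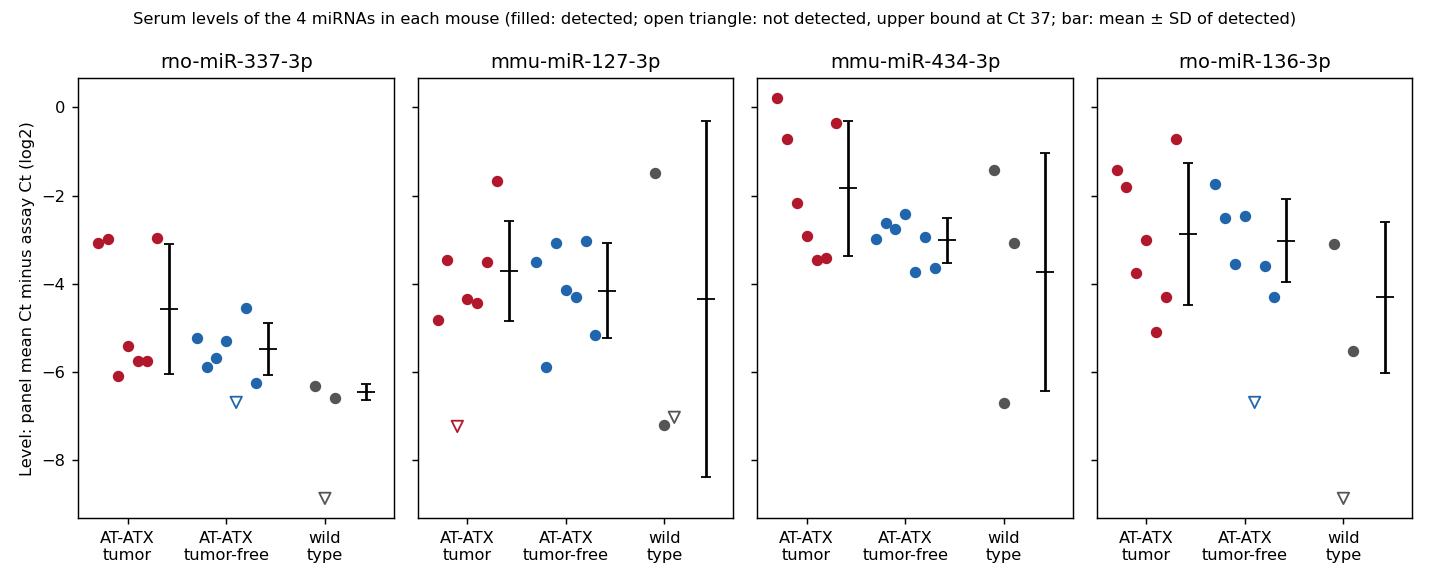
Level of each miRNA (panel mean Ct minus Ct, log2) in every serum, with tumor mice left, tumor-free mice in the middle and wild-type mice right. Points are mice, bars are group means with SD, and a mouse without detection is marked at its upper bound (panel mean minus a Ct of 37). Tumor replicates 1, 2 and 7 have the 3 highest levels of miR-337-3p and miR-434-3p.

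Tumor mice were first set against tumor-free mice. None of the 4 miRNAs passed an adjusted p of 0.05 (limma, two-sided, Benjamini-Hochberg over the 338 assays tested, undetected sera left out of the fit), where 1.48% of all assays did. MiR-434-3p averaged -1.83 ± 1.53 in tumor and -3.01 ± 0.50 in tumor-free mice (SD, n = 7 each), a difference of 1.18 (SE 0.71, limma adjusted p = 0.423). The SE rests on 1 spread pooled over all groups, wild-type mice included. Without wild-type replicate 2 the SE for miR-434-3p was 0.56 (limma adjusted p = 0.266). MiR-337-3p averaged -4.57 ± 1.48 in tumor and -5.48 ± 0.59 in tumor-free mice (SD, n = 7 and 6), a difference of 0.91 (SE 0.58, limma adjusted p = 0.43). For both, the 95% interval of the difference held 0, from -0.29 to 2.66 for miR-434-3p and from -0.30 to 2.13 for miR-337-3p. MiR-127-3p differed by 0.45 (SE 0.77) and miR-136-3p by 0.16 (SE 0.69), with limma adjusted p of 0.793 and 0.915. Detected values overlapped between the groups for all 4, against 1.18% of all assays without overlap. The difference of miR-136-3p turned to -0.36 on raw Ct and to -0.30 against reference miRNAs. The median difference of the 4 was 0.68, beside 0.14 over all 338 assays. In serum, fewer cells of a type that release a miRNA and less RNA released per cell cannot be told apart.

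Tumor-free AT-ATX mice were then set against wild-type mice. Again 0 of the 4 passed the adjusted threshold, where 0.592% of all assays did. MiR-136-3p averaged -3.02 ± 0.95 in 6 tumor-free mice, against values of -3.09 and -5.51 in the wild-type mice, a difference of 1.28 (SE 1.01, limma adjusted p = 0.456). MiR-337-3p differed by 0.97 (SE 0.85, limma adjusted p = 0.497), miR-434-3p by 0.72 (SE 0.91, 0.647) and miR-127-3p by 0.19 (SE 1.11, 0.909). No member had an unadjusted limma p under 0.05, which 22.5% of all assays had. MiR-337-3p was the 1 member whose detected values did not overlap, beside 12.7% of all assays without overlap. That leaves out tumor-free replicate 5, whose level of at most -6.68 lies below both detected wild-type values. For miR-434-3p and miR-127-3p the SE was larger than the difference. The wild-type mouse left out moves the result. The difference of miR-136-3p was 2.49 without wild-type replicate 1 and 0.067 without replicate 3, the miR-127-3p difference was 3.04 without wild-type replicate 1 and -2.66 without replicate 2, and that of miR-434-3p was 1.88 and -0.76. On raw Ct, where the median of all assays shifted to -1.07, 2 of the 4 differences lay above 0 and miR-127-3p and miR-434-3p lay below it (-1.63 and -0.30).

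With levels set against the panel mean, the differences of tumor from wild-type mice were the largest of the 3 comparisons for each of the 4 miRNAs. This follows from the fit, where that difference is the sum of those in the other comparisons, which were all above 0. On raw Ct, miR-127-3p turned to -1.54 and the other 3 stayed above 0. Against the panel mean 0 of 4 passed the adjusted threshold, where 8.28% of all assays did, and on raw Ct 0 of 4 passed, where 15 of the 338 assays did. MiR-434-3p differed by 1.91 (SE 0.91, 95% interval 0.01 to 3.81, limma adjusted p = 0.197) and miR-337-3p by 1.89 (SE 0.83, 0.13 to 3.64, limma adjusted p = 0.176). Both had an unadjusted limma p under 0.05 (0.0494 and 0.0367), as had 25.1% of all assays. MiR-136-3p differed by 1.43 (SE 1.00, limma adjusted p = 0.39) and miR-127-3p by 0.64 (SE 1.13, 0.777). The detected values of miR-337-3p did not overlap between the groups, nor did those of 9.17% of all assays. Leaving out wild-type replicate 1 brought miR-434-3p past the threshold (3.06, limma adjusted p = 0.0489), and without wild-type replicate 2 its difference was 0.43. That of miR-136-3p was 2.65 without wild-type replicate 1 and 0.22 without replicate 3, and that of miR-127-3p was 3.49 without replicate 1 and -2.21 without replicate 2.

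**Figure D2:**
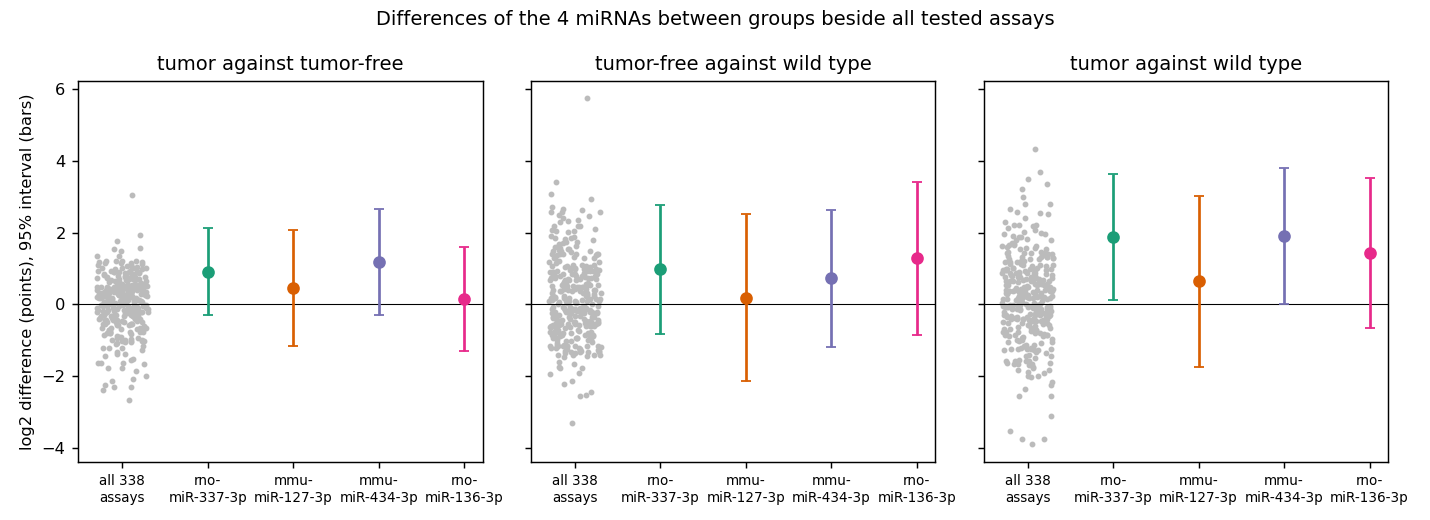
Difference in level (log2, limma) of each miRNA in each comparison (tumor to tumor-free mice, tumor-free to wild-type mice, tumor to wild-type mice), with 95% intervals as bars and all tested assays as grey points at the left of each panel. A positive value is higher in the group named first. All 12 differences of the 4 miRNAs lie above 0 with levels set against the panel mean, 4 of them turn below 0 on raw Ct, and none passed an adjusted p of 0.05.

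The tumor mice with the 3 highest levels of miR-337-3p and miR-434-3p also stood apart in the hemolysis index. The index was 2.21, 2.29, 5.83, 7.09, 4.89, 3.13 and 2.37 cycles in tumor replicates 1 to 7. It was 4.56, 5.50, 3.87, 3.88, 5.54, 3.56 and 3.74 in tumor-free replicates 1 to 7 and 3.71, 7.82 and 5.28 in wild-type replicates 1 to 3. Tumor replicates 1, 2 and 7 thus had the 3 lowest indices of the 17 sera, and wild-type replicate 2, where miR-337-3p and miR-136-3p were not detected, had the highest. Tumor-free replicate 5, also without these 2 miRNAs, had the highest index of its group. The level of miR-451a alone was 9.42, 9.21 and 8.61 in tumor replicates 1, 2 and 7. It was 9.50 in tumor-free replicate 6 and 9.55 in tumor replicate 6, close to tumor replicate 1. The mean level of 6 red blood cell miRNAs set the same 3 tumor mice apart only in part. Tumor replicate 7 had the lowest of all sera (3.45). Tumor replicate 2 (4.24) lay below every serum but tumor replicate 7 and tumor-free replicate 4 (4.12). Tumor replicate 1, at 5.85, was not low. The ranges were 3.45 to 5.97 in tumor, 4.12 to 7.40 in tumor-free and 4.40 to 7.34 in wild-type mice.

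Across sera with group means taken off, Pearson's r between level and index was -0.72 for miR-434-3p (rho -0.69, n = 17), -0.71 for miR-337-3p (rho -0.68, n = 15), -0.62 for miR-127-3p (rho -0.53, n = 15) and -0.42 for miR-136-3p (rho -0.41, n = 15). None passed after adjustment over the 4: permutation p for r was 0.0172, 0.0402, 0.0958 and 0.211, adjusted to 0.0688, 0.0804, 0.128 and 0.211, and for rho it was 0.0205, 0.0417, 0.165 and 0.21, adjusted to 0.082, 0.0834, 0.21 and 0.21. Within tumor mice alone (n = 6 or 7), r was -0.66 for miR-434-3p, -0.77 for miR-337-3p, -0.41 for miR-127-3p and -0.56 for miR-136-3p. Within tumor-free mice alone (n = 6 or 7), r was -0.20, -0.31, -0.53 and 0.60 in the same order. Without the 2 sera farthest from the median index, r over all groups was -0.60, -0.66, -0.44 and -0.53. Without tumor replicates 1, 2 and 7 (a setting chosen after seeing the data), r was -0.52 for miR-434-3p, -0.09 for miR-337-3p, -0.73 for miR-127-3p and 0.29 for miR-136-3p. For miR-337-3p, r without those mice was -0.44 on raw Ct and -0.33 against spike-ins. The part of red cell lysis in the levels was not tested.

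**Figure D3:**
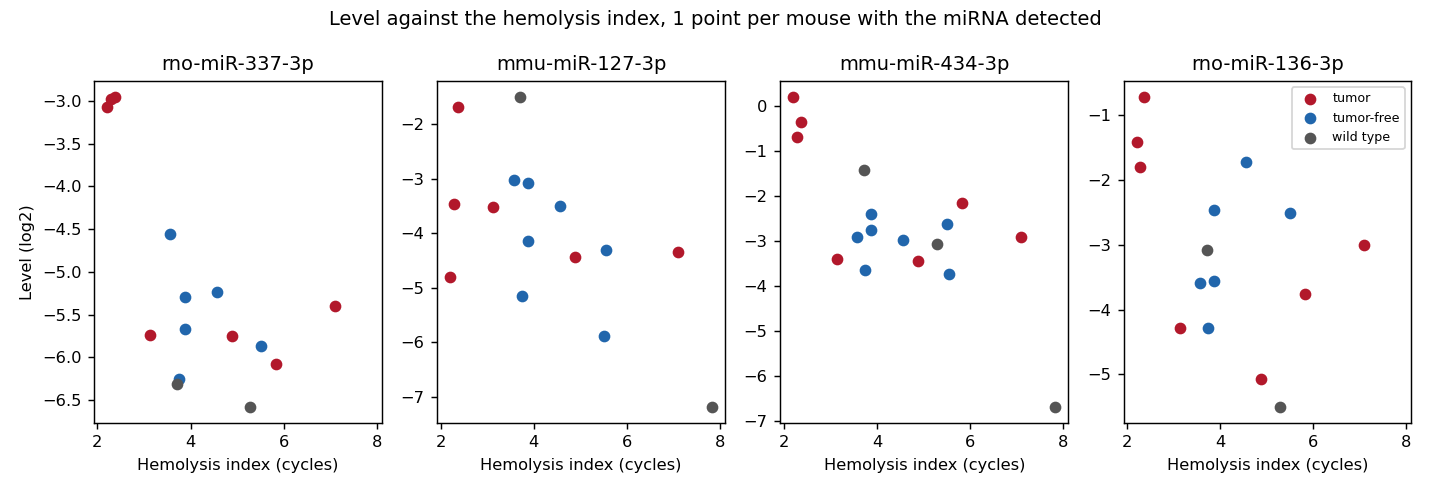
Level of each miRNA (log2, y axis) against the hemolysis index (Ct of miR-23a-3p minus Ct of miR-451a, cycles, x axis), 1 point per serum, coloured by tumor, tumor-free and wild type. The 3 tumor sera with indices from 2.21 to 2.37 hold the 3 highest levels of miR-337-3p and miR-434-3p.

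The 4 miRNAs varied together only in part. Levels of miR-434-3p and miR-136-3p had the highest correlation over the sera with group means taken off (r = 0.87, rho 0.85, n = 15, permutation p = 0.00138 and 0.00243, adjusted over 6 pairs to 0.00828 and 0.0125). MiR-337-3p followed miR-434-3p (r = 0.84, rho 0.80, adjusted permutation p = 0.0185 and 0.025, n = 15) and miR-136-3p (r = 0.77, rho 0.78, adjusted permutation p = 0.0185 and 0.0125). With levels set against the panel mean, miR-127-3p did not pass with any of the others: r was 0.62 with miR-434-3p, 0.44 with miR-337-3p and 0.28 with miR-136-3p (rho 0.45, 0.48 and 0.16, adjusted permutation p for r 0.355, 0.231 and 0.411). On raw Ct all 3 of its pairs passed by r (0.81, 0.82 and 0.68, adjusted permutation p = 0.0138, 0.00623 and 0.0403), though not by rho for miR-136-3p (0.30, adjusted permutation p = 0.371). All these levels share the panel mean of their serum. Without tumor replicates 1, 2 and 7, r was 0.72 for miR-434-3p with miR-136-3p, 0.31 for miR-337-3p with miR-136-3p and 0.18 for miR-337-3p with miR-434-3p, and none of these passed. On raw Ct without the same mice, r was 0.90, 0.79 and 0.84 for these pairs (adjusted permutation p = 0.0274, 0.0934 and 0.0324, n = 12).

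The spread within groups was above the median assay for all 4. The pooled within-group SD was 1.57 for miR-127-3p, 1.47 for miR-434-3p, 1.39 for miR-136-3p and 1.11 for miR-337-3p, beside a median of 0.905 over the 338 assays. They ranked 21st, 35th, 49th and 104th by this SD. The rank of miR-127-3p rests on the 2 wild-type mice: within tumor and tumor-free mice alone its SD was 1.10 and its rank 99, beside 1.14 (rank 83) for miR-434-3p, 1.35 (44) for miR-136-3p, 1.16 (76) for miR-337-3p and a median of 0.877.

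For 2 of the hairpins both arms were measured. The hairpins are shown because a pair of assays reads the 2 arms of 1 precursor, marked here in capitals with the 5p arm first (RefSeq, GRCm38.p6, plus strand, chr12:109594506-109594599 for Mir434 and chr12:109595327-109595388 for Mir136).
Mir434: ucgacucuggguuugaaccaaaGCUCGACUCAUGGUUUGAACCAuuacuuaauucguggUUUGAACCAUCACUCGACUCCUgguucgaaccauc
Mir136: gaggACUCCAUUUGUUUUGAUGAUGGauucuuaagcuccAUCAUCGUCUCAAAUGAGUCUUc

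The opposite arms did not pass either. MiR-434-5p averaged -3.26 ± 1.22 in tumor and -3.50 ± 0.71 in tumor-free mice (SD, n = 6 each), and its differences were 0.24, 0.39 and 0.63 in the 3 comparisons. MiR-136-5p averaged -2.08 ± 1.35 in tumor and -1.66 ± 0.78 in tumor-free mice (SD, n = 7 each), a difference of -0.43, opposite in sign to that of miR-136-3p. Its differences from wild type were 1.82 for tumor-free and 1.40 for tumor mice, and none of the 6 differences of the opposite arms passed the adjusted threshold (smallest limma adjusted p = 0.218).

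The Ct of the 5p assay minus that of the 3p assay compares the arms within a serum, where the panel mean cancels. This measure was chosen after seeing the data, and since assays may amplify unequally, only its differences between groups can be read. For mir-434 it averaged 1.69 ± 0.61 cycles in tumor and 0.61 ± 0.73 in tumor-free mice (SD, n = 6 each), with ranges of 0.99 to 2.67 and -0.70 to 1.32. The difference of 1.09 cycles had an exact permutation p of 0.013, adjusted to 0.0779 over 6 tests, so it did not pass. Leaving out single sera gave 0.83 cycles without tumor-free replicate 6 and 0.89 without tumor replicate 1 (adjusted exact permutation p = 0.182 for both) up to 1.23 without tumor-free replicate 4 (0.039), and with undetected values at a Ct of 37 the adjusted exact permutation p was 0.164. For mir-136 the arm difference was -0.78 ± 0.94 cycles in tumor and -1.60 ± 0.95 in tumor-free mice (SD, n = 7 and 6, adjusted exact permutation p = 0.303).

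**Figure D4:**
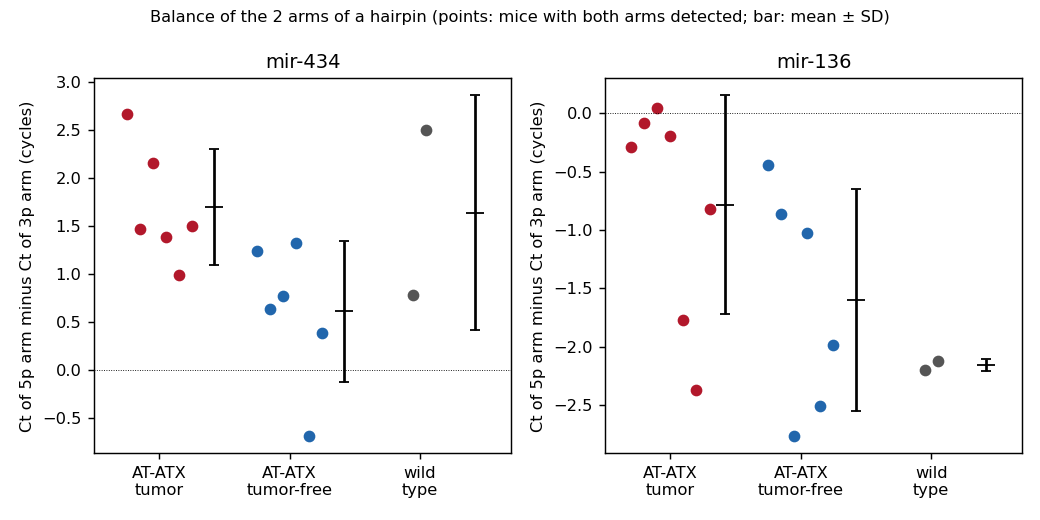
Ct of the 5p assay minus Ct of the 3p assay (cycles) in each serum where both were detected, for mir-434 and mir-136, with tumor left, tumor-free in the middle and wild type right. Points are mice and bars are means with SD. For mir-434 the tumor mice lie between 0.99 and 2.67 cycles and the tumor-free mice between -0.70 and 1.32.

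The rest of the Dlk1-Dio3 domain was represented by 12 further miRNA assays, mostly of the cluster that lies downstream. Against tumor-free mice, 10 of the 12 had a difference above 0 in tumor mice, with a median of 0.87, and 0 passed the adjusted threshold. The smallest p belonged to miR-495-3p (1.54, limma adjusted p = 0.127) and miR-376c-3p (1.22, 0.135). Tumor-free mice differed from wild type by a median of 0.88, above 0 for 10 of 12 and past the threshold for 0, with the smallest p for miR-300-3p (1.84, limma adjusted p = 0.157) and miR-376a-3p (1.88, 0.21). In tumor mice, miR-300-3p rose by 2.64 (SE 0.64, limma adjusted p = 0.019) and miR-495-3p by 2.51 (SE 0.75, limma adjusted p = 0.0459) relative to wild type. These were the 2 of 12 that passed there, where 8.28% of all assays did, and all 12 differences were above 0, with a median of 1.51 beside 0.19 over all assays. Both calls depended on the setting: miR-300-3p passed in 22 of 29 other settings (adjusted p 0.00738 to 0.547) and miR-495-3p in 11 of 29 (adjusted p 0.0236 to 0.864). MiR-495-3p lost its call, among others, without tumor replicate 1, 2 or 7 (limma adjusted p = 0.0701, 0.0666 and 0.0581), without wild-type replicate 3 (0.081) and with the hemolysis index as a covariate (0.0859). On raw Ct, where the median of all assays was -1.22, 6 of the 12 lay above 0 and 0 passed, and without wild-type replicate 2, 8 of the 12 lay above 0, with a median of 0.75, and 0 passed. Against spike-ins 8 of the 12 lay above 0, and against tumor-free mice 6 of the 12 did on raw Ct. In tumor-free against wild-type mice, 6 of the 12 lay above 0 on raw Ct and against spike-ins (medians -0.36 and -0.36), 5 after quantile normalization (-0.20) and 5 without wild-type replicate 2 (-0.10).

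The tumor mice with the 3 highest levels of miR-337-3p and miR-434-3p were also high for most of the domain. Tumor replicate 1 lay above the median serum in 12 of the 12 further assays, tumor replicate 2 in 11 and tumor replicate 7 in 10. Tumor replicate 1 was among the 3 highest sera for 9 of them, tumor replicate 2 for 7 and tumor replicate 7 for 10. On raw Ct the picture differed between these 3 mice: tumor replicate 7 was among the 3 lowest Ct values in 10 of 12 assays, tumor replicate 2 in 3 and tumor replicate 1 in 0, while wild-type replicate 1 was among them in 11. Tumor replicate 1 had the highest panel mean Ct of all sera (31.7) and wild-type replicate 1 the lowest (27.0).

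**Figure D5:**
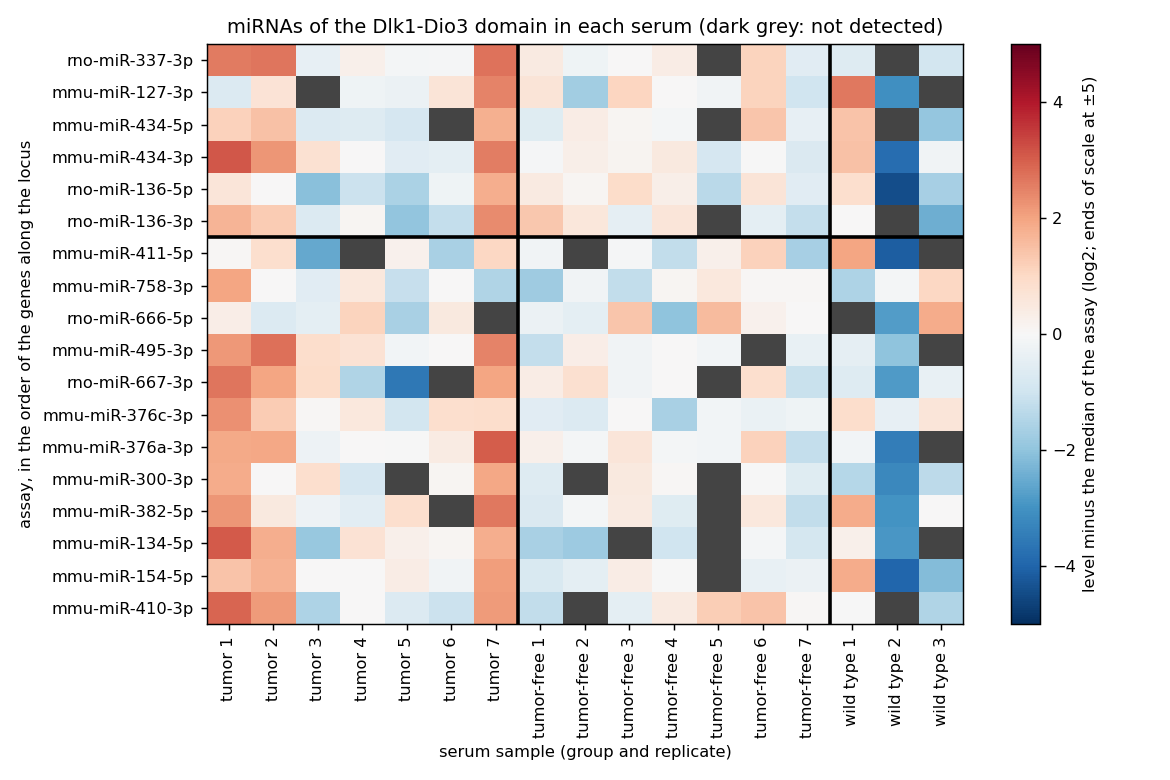
Level of each Dlk1-Dio3 assay in each serum, given as the deviation from that assay's median (log2, colour), with assays in rows and tumor, tumor-free and wild-type sera in columns from left to right. Dark grey cells were not detected. Tumor replicates 1, 2 and 7 lie above the median in 12, 11 and 10 of the 12 assays outside the Rtl1 group. The share over all assays was not counted.

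Markers of other sources were set beside these sera. The mean level of 6 skeletal and heart muscle miRNAs was between -2.80 and 2.76 in tumor mice, between -3.29 and 1.33 in tumor-free mice and between -4.13 and -1.47 in wild-type mice. Tumor replicate 7 had the highest muscle level of all sera (2.76) and tumor replicate 2 had 1.46, but tumor replicate 1 had -1.24. The mean level of 6 brain and neuron miRNAs was between -2.27 and -1.33 in tumor, between -2.82 and -1.69 in tumor-free and between -2.47 and -1.97 in wild-type mice. Among these lists, 0 of the tested muscle miRNAs passed the adjusted threshold in any comparison. Of all assays 1.48% passed in tumor against tumor-free, 0.592% in tumor-free against wild-type and 8.28% in tumor against wild-type mice. In the last of these comparisons 1 of the 6 brain miRNAs was higher past the threshold. The mean level of 5 platelet miRNAs was between 3.02 and 4.59 in tumor, between 3.46 and 4.17 in tumor-free and between 2.42 and 3.93 in wild-type mice. Its 3 highest values were those of tumor replicates 1, 2 and 7 (4.59, 4.46 and 4.17), the last just above the highest tumor-free mouse. The mean level of 6 liver miRNAs was between 0.77 and 2.68 in tumor, between 2.29 and 3.55 in tumor-free and between 2.75 and 4.03 in wild-type mice. In tumor against wild-type mice 1 of the 5 platelet miRNAs was higher and 3 of the 6 liver miRNAs were lower past the adjusted threshold. Of all assays 8.28% passed there in either direction. The part of muscle, neuronal, platelet or liver sources in the levels of the 4 miRNAs was not tested.

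The assays whose levels were most like those of the members, by Pearson's r over the sera with group means taken off, are given as a description, since 251 assays were searched. For miR-434-3p they were rno-miR-214-3p (0.93), rno-miR-136-5p (0.84) and mmu-miR-214-3p (0.80), and for miR-136-3p they were rno-miR-136-5p (0.76), mmu-miR-214-3p (0.72) and rno-miR-214-3p (0.72). MiR-337-3p was most like rno-miR-214-3p (0.85) and the muscle miRNAs miR-133b-3p (0.85) and miR-133a-3p (0.84). MiR-127-3p was most like miR-152-3p (0.83), rno-miR-136-5p (0.83) and miR-125a-5p (0.81). The 3 members outside miR-127-3p thus share a miR-214-3p assay among their nearest, and 3 of the 4 share the opposite arm of mir-136.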

How the data were processed

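Total RNA from 50 µL of serum was converted to cDNA and measured with SYBR Green PCR over 40 cycles on 2 ready-made serum panels, per the labels' protocols. The deposited values are Ct scores, not normalized. The detection limit, threshold setting and calibration between plates are not given in the sources used here. An empty cell was read as no detection. The members and lists were chosen with earlier results of these data known.

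Ct values were turned into levels against the mean of 252 assays detected in all 17 sera. Tests covered the 338 assays with values in at least 5 tumor, 5 tumor-free and 2 wild-type mice, among them all 4 members and all 14 further domain assays. One fit over the 3 groups was made in limma 3.58.1 (R 4.3.3), with undetected sera dropped. Exact tests and permutation tests (100000 resamples, two-sided) used scipy 1.17.1 under Python 3.11.15. The named assays were the members, their opposite arms, the 2 other domain assays with the smallest p in each comparison and the 3 assays most like each member. Alternatives covered scaling, missing values, the detection limit and filter, the variance model, the test, the hemolysis index as a covariate and leaving out sera. Arm differences, the label number as a random block and the setting without tumor replicates 1, 2 and 7 were added after seeing the data. No sera were duplicates: Ct differences between any 2 had an SD of at least 0.845 cycles over the assays detected in both.

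By the endings of their last decimals, assays form sets of 245 and 120 in 13 sera. A single ending fills the other 4 (tumor replicate 1 and tumor-free replicates 4, 5 and 7). Batches are not named in the labels. MiR-136-3p lies in the smaller set and the other members in the larger.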

Additional observations from a re-analysis of the deposited data

How the results depend on the processing

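Of 363 differences of the 4 miRNAs under other settings, 338 kept their direction and side of the threshold, 23 turned sign and 2 passed the threshold. Many of the 363 could not turn sign, so the count of 338 is no measure of robustness. Leaving out a serum of the group not compared keeps the difference itself unchanged. So do the other variance model, the looser detection filter and the exact permutation test. The number of members past the threshold in tumor against wild-type mice was 1 with undetected values set to a Ct of 37 (miR-337-3p, 2.69, limma adjusted p = 0.0347) and 0 to 1 when single sera were left out (miR-434-3p without wild-type replicate 1). It was 0 in every other setting and comparison. Of all 338 assays, 28 passed with undetected values at 37 and 29 without wild-type replicate 1, in tumor against wild-type mice. In several settings 0 of all assays passed, so 0 of the 4 says nothing of the members there. These were the exact permutation test in each comparison, and raw Ct and spike-ins in both comparisons with tumor-free mice. In tumor against tumor-free mice, reference miRNAs and the fit without the 4 sera of 1 decimal ending were others. In tumor against tumor-free mice, miR-127-3p turned to -0.055 with undetected values at 37, and miR-136-3p to -0.30 against reference miRNAs, -0.36 on raw Ct, -0.059 against spike-ins and -0.27 without the 4 sera of 1 decimal ending, with -0.20 to 0.52 over single sera left out. In tumor-free against wild-type mice, raw Ct, spike-ins and the hemolysis covariate turned miR-127-3p to -1.63, -1.61 and -0.64 and miR-434-3p to -0.30, -0.36 and -0.080, and quantile normalization turned miR-127-3p to -0.58. Leaving out single sera gave -2.66 to 3.04 for miR-127-3p and -0.76 to 1.88 for miR-434-3p. In tumor against wild-type mice, miR-127-3p turned to -1.54 on raw Ct, -1.24 with spike-ins, -0.27 with quantile normalization and -0.62 with the covariate, with -2.21 to 3.49 over single sera left out. The arm difference of mir-434 between these groups was 0.056, with -0.81 to 0.92 over single sera. The median of all assays moved to -0.24, -1.07 and -1.22 on raw Ct in the 3 comparisons. Undetected values and wild-type mice left out change the data entering the fit, and for the other settings the cause was not tested. On raw Ct, r was 0.82 for miR-337-3p with miR-127-3p, 0.81 for miR-127-3p with miR-434-3p and 0.68 for miR-127-3p with miR-136-3p, which then passed. Without the 2 farthest sera, r was 0.77 for miR-337-3p with miR-434-3p and 0.64 with miR-136-3p, and neither passed. Without the 3 lowest hemolysis indices, r was 0.18 and 0.31 for these pairs, 0.72 for miR-434-3p with miR-136-3p, -0.0060 for miR-127-3p with miR-136-3p and 0.29 for miR-136-3p with the index. With a detection limit at a Ct of 35, 260 assays and 1 of the 4 members (miR-434-3p) could be tested. No paired analysis was possible because the replicate numbers only name mice and the meaning of the numbers that some AT-ATX labels share is not stated. With those shared numbers as a random block (added after seeing the data, consensus correlation 0.0703), 0 of the 4 passed in each comparison and no direction changed. High Ct values, few wild-type mice and unknown calibration limit the precision.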

Other observations

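Both a rat-named and a mouse-named miR-214-3p assay were on the panel, and both were among the 3 assays most like miR-434-3p and miR-136-3p. MiR-214 is made from the strand opposite the Dnm3 gene and is known from fibroblasts and muscle. Over the sera with group means taken off, the rat-named assay had an r of 0.93 with miR-434-3p, 0.85 with miR-337-3p and 0.72 with miR-136-3p. The mouse-named assay had 0.80 with miR-434-3p and 0.72 with miR-136-3p. These are descriptions from a search over 251 assays, and all levels share the panel mean of their serum.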
